A study of Mus musculus with 32 samples.

Results

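The series holds wild-type and Acss2 knockout mice exposed before birth to ethanol or saline, with libraries of dorsal hippocampus and cerebellar vermis. The comparison reported is that of ethanol-exposed wild-type mice with saline-exposed Acss2 knockouts in the dorsal hippocampus, a part of the brain's memory circuit. It addresses whether prenatal ethanol resembles loss of the enzyme. The members were chosen by the genotype, exposure and tissue in the labels, and they are 8 of the 32 libraries of the series. They are 4 libraries of wild-type mice exposed to ethanol before birth (ethanol WT, labelled cPAE) and 4 of knockouts exposed to saline (saline KO, labelled cPSE). A further 4 libraries of saline-exposed wild-type mice (saline WT) gave the base for the shift of each of the other groups, so that both shifts share this base. Hippocampal libraries of ethanol-exposed knockouts were part of the fit but of none of the comparisons. Each group holds 2 females (F1 and F3) and 2 males (M1 and M3), 1 mouse to a library, all of the C57BL/6J strain and all killed at postnatal day 40 to 50. The dams had been injected once a day into the abdomen with 3 g per kg of ethanol, at 20% by volume, or with the same volume of saline, so every group had injected dams. How the knockout allele was made, the genotype of the dams and which mice were littermates are not given in the sources used here. Exposure and genotype both differ between ethanol WT and saline KO, so this comparison alone cannot tell their parts apart.

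ACSS2 joins acetate to coenzyme A and so makes acetyl-CoA, the donor for histone acetylation and for fatty acid and sterol synthesis. Ethanol is oxidised by way of acetaldehyde to acetate, mostly in the liver, and the acetate reaches the brain through the blood. In neurons of the mouse hippocampus ACSS2 is known to sit at chromatin and to supply acetyl-CoA to histone acetyltransferases at genes of learning.

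The 12 libraries held 54092519 to 96664509 counts each. The even share of counts from 1 to 20 was 85.1% to 89.1% over the libraries, so the mates of a read pair were mostly counted separately and the number of independent fragments is lower than the counts. Levels are given as CPM, the count of a gene relative to its library size, with library sizes scaled by the trimmed mean of M-values (TMM). Markers of dentate granule neurons averaged 4.64 to 5.96 log2 CPM over these 12 hippocampal libraries and 2.35 to 3.20 over the cerebellar vermis libraries of the series. CA1 pyramidal markers averaged 5.78 to 6.81 and 2.18 to 4.01 over the same libraries. Markers of Purkinje neurons, cells of the cerebellum, averaged 3.46 to 5.47 in hippocampus and 7.20 to 8.75 in vermis. The tissue labels therefore matched their markers, and sex genes matched the sex label of 32 of 32 libraries. In bulk tissue, fewer cells of a type and less RNA per cell cannot be told apart, and this holds for every result that follows. Libraries of the same group differed well beyond sampling noise (lowest ratio of chi-square to its degrees of freedom 13.3), so none was counted as a copy.

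The knocked-out gene checked the labels. Acss2 (ENSMUSG00000027605) lies on the forward strand of chromosome 2 in GRCm39, with its first exon at 155359868 to 155360204. It measured 54.9, 59.6, 62.6 and 55.5 CPM in ethanol WT (F1, F3, M1 and M3, the order kept throughout), against 12.6, 13.04, 13.6 and 11.1 CPM in saline KO and 49.7, 56.7, 55.7 and 50.9 CPM in saline WT. All 4 ethanol WT libraries lay above all 4 saline KO libraries, while ethanol WT and saline WT overlapped. The mean was 58.1 ± 3.62 CPM in ethanol WT and 12.6 ± 1.07 CPM in saline KO (SD, n = 4 each), so that the knockouts stood at 21.6% of the ethanol WT level. On the log2 scale the difference was 2.21 (standard error, SE, 0.077; 95% interval 2.05 to 2.37; adjusted p = 2.99e-11 in edgeR's quasi-likelihood test over all genes). The 2-sided exact permutation test over 70 arrangements gave p = 0.0286, the smallest it can give. Against saline WT, ethanol WT differed by 0.13 (exact permutation p = 0.171) and saline KO by -2.08 (exact permutation p = 0.0286). What the counts left in the knockouts consist of was not tested.

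The promoter of Acss2 is shown because it belongs to the gene on which this comparison turns (RefSeq, GRCm38.p6, chr2:155517793-155518092, forward strand, 250 bases before to 50 after the gene's start). It holds no match to the pattern described with the respiratory genes.
Acss2: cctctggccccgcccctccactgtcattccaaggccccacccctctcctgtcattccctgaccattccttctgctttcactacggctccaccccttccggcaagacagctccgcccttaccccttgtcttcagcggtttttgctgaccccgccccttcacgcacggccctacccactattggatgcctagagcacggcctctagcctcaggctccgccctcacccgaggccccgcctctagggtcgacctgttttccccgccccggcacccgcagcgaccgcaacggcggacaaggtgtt

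Beyond Acss2, edgeR with its low-count filter called no hippocampal gene between ethanol WT and saline KO, while DESeq2 called 5 more and edgeR with no low-count filter 620 in all. Of 23394 genes tested 1 was called at a Benjamini-Hochberg adjusted p under 0.05 in edgeR (0.00427%), and this was Acss2, higher in ethanol WT. Without adjustment 1359 genes had p under 0.05 (5.81%), of which 590 had higher values in ethanol WT (2.52%) and 769 lower ones (3.29%). DESeq2 called 6 genes (0.0256%), 4 higher and 2 lower. Those higher were Acss2, Fmo2, Plin4 and G530011O06Riky, and those lower were the predicted genes Gm13226 and Gm7899. With no low-count filter edgeR called 620 of 39027 genes, and for some of these the groups overlapped. Clic6 was called in that setting (adjusted p = 2.51e-38). It ran from 14.9 to 58.1 CPM in ethanol WT and from 0.695 to 35.5 CPM in saline KO. Tac2 was called too (adjusted p = 4.87e-16), with ethanol WT F3 alone far above the rest at 18.97 CPM. How many of the 620 overlapped was not counted. The values of the 4 ethanol WT libraries did not overlap those of the 4 saline KO libraries for 998 genes (4.27%). Of these, 466 were higher in ethanol WT (1.99%) and 532 lower (2.27%).

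How large a difference could have been missed is given by the 95% interval of each gene. Its median half-width was 0.317 on the log2 scale over all genes, 0.215 over the 16541 genes of at least 1 CPM and 0.171 over the 10542 genes of at least 10 CPM. The interval lay within a log2 difference of 1 in either direction for 75.3% of all genes, 94.9% of those of at least 1 CPM and 98.9% of those of at least 10 CPM. Within 0.5 in either direction it lay for 53.4%, 75.3% and 91.8%. A missed call thus does not show that the groups were alike, but most well-expressed genes were held to differences under these bounds.

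**Figure D1:**
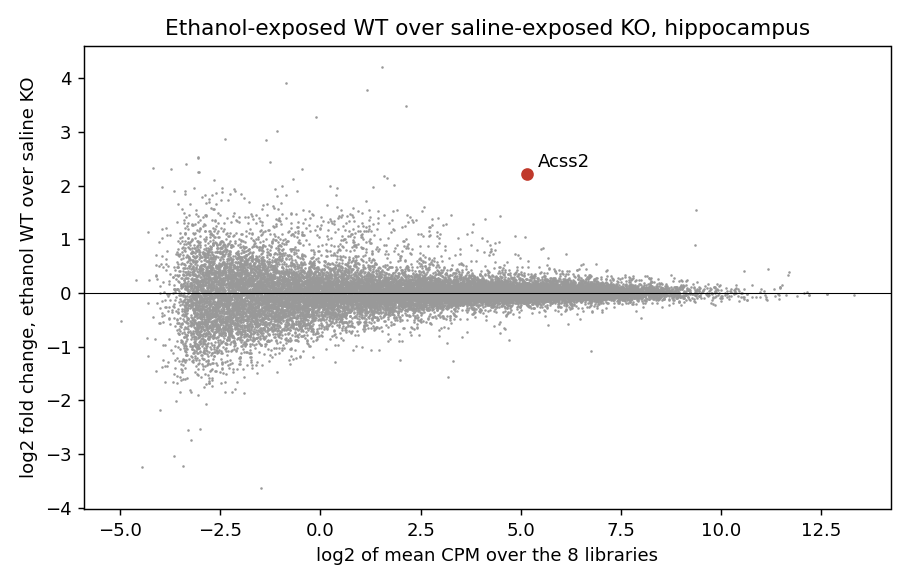
Log2 fold change of ethanol WT over saline KO (y axis) against the log2 of the mean CPM over the 8 libraries (x axis), 1 point per gene for the 23394 genes tested. Acss2, marked in red at 2.21, is the only gene called in edgeR, and the points spread widely at low CPM.

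The genes that came next in the comparison are named by rank, the 10 with the smallest p in each direction, Acss2 aside, among those of at least 1 CPM without a predicted name, and none of them passed in edgeR. First among those with higher values was Fmo2, a flavin-containing monooxygenase. It measured 1.297, 1.65, 1.74 and 1.84 CPM in ethanol WT, against 0.667, 0.728, 0.561 and 0.660 CPM in saline KO and 0.591, 0.887, 0.900 and 0.536 CPM in saline WT. All 4 ethanol WT libraries lay above all 8 others, and saline KO and saline WT overlapped. The log2 difference from saline KO was 1.32 (SE 0.24, adjusted p = 0.429 in edgeR and 0.00193 in DESeq2). Plin4, which coats lipid droplets, measured 8.17, 4.37, 6.16 and 3.65 CPM in ethanol WT, against 2.44, 2.35, 1.64 and 1.26 CPM in saline KO and 2.20, 2.48, 2.39 and 1.65 CPM in saline WT. Here too the 4 ethanol WT libraries lay above the 8 others, with a log2 difference from saline KO of 1.55 (SE 0.38, adjusted p = 0.734 in edgeR and 0.0368 in DESeq2). Gpr17, a receptor of immature oligodendrocytes, measured 87.5, 92.5, 91.4 and 84.9 CPM in ethanol WT, against 76.2, 65.0, 75.2 and 68.7 CPM in saline KO and 72.1, 66.7, 66.7 and 69.2 CPM in saline WT. Its groups were split in the same way, at a log2 difference of 0.32 (SE 0.077, adjusted p = 0.734). Hip1, an adaptor of clathrin-coated vesicles, likewise lay higher in each ethanol WT library (65.6 to 75.2 CPM) than in each saline KO library (50.2 to 59.5 CPM) and saline WT library (45.8 to 61.1 CPM).

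For Plekho2 and Mrpl42 of this rank all 4 saline KO libraries lay below all 4 of saline WT, and for the others saline KO overlapped saline WT. Dbp, a clock output transcription factor, measured 72.1, 68.9, 73.5 and 82.4 CPM in ethanol WT, against 63.7, 54.6, 47.3 and 58.9 CPM in saline KO and 69.96, 60.5, 68.1 and 77.4 CPM in saline WT. Ethanol WT and saline KO did not overlap, and saline WT overlapped both (log2 difference 0.40, SE 0.11, adjusted p = 0.734). Plekho2 averaged 12.3 ± 1.29 CPM in ethanol WT, 9.30 ± 1.501 CPM in saline KO and 13.1 ± 1.14 CPM in saline WT (SD, n = 4 each), and saline KO F1 overlapped ethanol WT at 11.5 CPM. Mrpl42, a protein of the mitochondrial ribosome, averaged 22.2, 18.6 and 21.4 CPM in the same order. Plcl1, Plcxd1 and Garem2 completed the 10 with log2 differences of 0.37, 0.49 and 0.32, and in each ethanol WT lay above saline KO in every library.

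The 10 genes next in rank with lower values in ethanol WT did not pass either. Gimap6, a GTPase of lymphocytes, measured 2.15, 2.30, 2.33 and 2.19 CPM in ethanol WT, against 3.24, 3.64, 2.92 and 2.84 CPM in saline KO and 2.69, 2.94, 2.56 and 2.52 CPM in saline WT. All 4 ethanol WT libraries lay below all 8 others (log2 difference from saline KO -0.49, SE 0.12, adjusted p = 0.734). Icosl, the ligand of a T cell costimulator, measured 6.48, 5.49, 6.91 and 5.98 CPM in ethanol WT, against 8.05, 7.10, 9.30 and 10.0 CPM in saline KO, with no overlap, and 6.95, 7.50, 8.52 and 6.47 CPM in saline WT. Nfil3, which represses the targets of DBP, measured 7.45, 6.77, 9.17 and 8.41 CPM in ethanol WT, against 11.1, 12.1, 10.1 and 9.56 CPM in saline KO and 8.14, 8.39, 8.80 and 8.56 CPM in saline WT. Saline KO lay above both wild-type groups in every library for Nfil3 (log2 difference of ethanol WT from saline KO -0.43, SE 0.11, adjusted p = 0.734). Amd2, a copy of the polyamine synthesis gene Amd1, averaged 48.9 ± 3.27 CPM in ethanol WT, 57.4 ± 2.37 CPM in saline KO and 50.8 ± 2.59 CPM in saline WT (SD, n = 4 each). Apold1, a gene of endothelial cells, averaged 2.37 ± 0.489, 4.01 ± 1.17 and 2.92 ± 0.164 CPM in the same order, and its groups overlapped. The other 5, Rpl7-ps8, Eef2-ps2, Tubb2a-ps2, Rpl6l and Rpl21-ps6, are annotated as processed pseudogenes, with log2 differences of -0.88, -0.74, -0.57, -0.35 and -1.05. Their sequences are close to those of their parent genes, so their counts may hold reads of those genes and are uncertain.

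**Figure D2:**
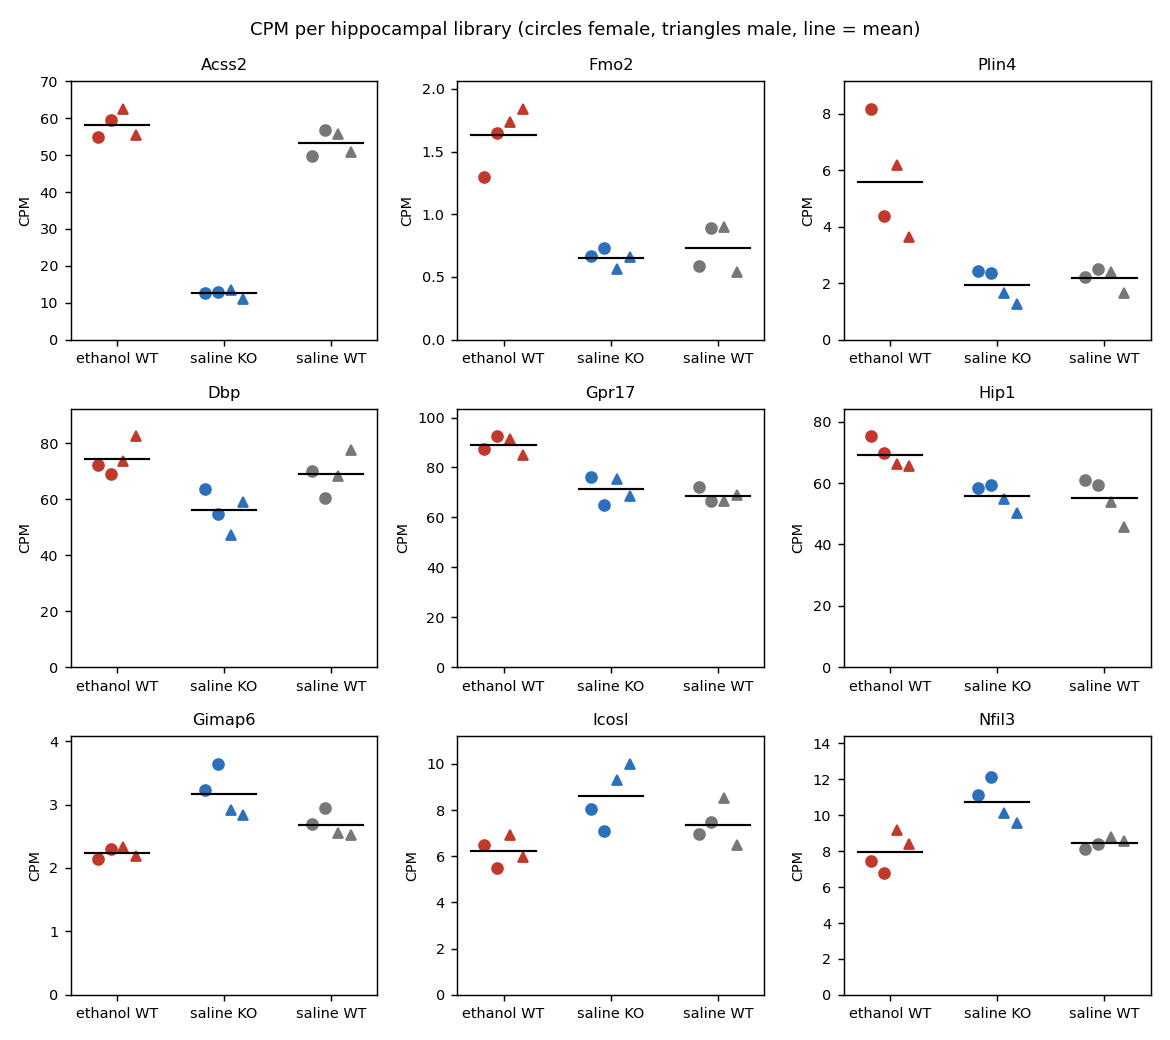
CPM (y axis, from 0) of 9 genes in each hippocampal library of ethanol WT (red), saline KO (blue) and saline WT (grey), with circles for females, triangles for males and a line at the mean of 4. The 4 ethanol WT libraries lie above all others for Fmo2, Plin4, Gpr17 and Hip1 and below all others for Gimap6, while saline KO stands apart from both wild-type groups for Acss2 and Nfil3.

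The shift of each group from saline WT was then set side by side. Both shifts subtract the same 4 saline WT libraries, so any error of that base enters both in the same direction and no measure of their likeness was computed. For ethanol WT 0 of 23394 genes were called in edgeR (0%), and DESeq2 called 128 (0.547%). Without adjustment 2457 had p under 0.05 (10.5%), 1140 with higher values (4.87%) and 1317 with lower ones (5.63%), and the libraries of ethanol WT and saline WT did not overlap for 1317 genes (5.63%; 2.91% higher, 2.72% lower). For saline KO edgeR called 1 gene (0.00427%), Acss2, and DESeq2 195 (0.834%). Here 2070 genes had p under 0.05 without adjustment (8.85%), 1081 higher (4.62%) and 989 lower (4.23%), and 1102 did not overlap saline WT (4.71%; 2.74% higher, 1.97% lower). The direct comparison of ethanol WT with saline KO contains no saline WT value in its difference, though the saline WT libraries share in its estimate of the spread.

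The 10 genes of at least 1 CPM with the smallest p in the ethanol shift are given with the knockout shift beside it. None passed in the ethanol shift in edgeR with its low-count filter and all libraries kept. Lamc1, a laminin chain of basement membranes, measured 47.6, 45.4, 46.2 and 45.6 CPM in ethanol WT, 42.8, 46.4, 44.4 and 44.1 CPM in saline KO and 36.1, 33.8, 37.6 and 33.0 CPM in saline WT. Both groups lay above saline WT in every library and overlapped each other. Its shifts were 0.40 for ethanol (SE 0.062, adjusted p = 0.101) and 0.34 for the knockout (SE 0.062, adjusted p = 0.0880), and the direct difference was 0.06 (95% interval -0.07 to 0.19). Hypk, a chaperone partner of the N-terminal acetyltransferase, measured 30.4, 29.6, 28.7 and 29.7 CPM in ethanol WT, 29.3, 28.4, 29.8 and 31.7 CPM in saline KO and 34.6, 37.0, 34.3 and 38.5 CPM in saline WT. Its groups were split as for Lamc1 but downward, at shifts of -0.29 for ethanol and -0.28 for the knockout and a direct difference of -0.01 (95% interval -0.13 to 0.11).

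For 6 further genes the mean of saline KO lay between those of the other groups, as it also did for Lamc1 and Hypk. Sstr2, a somatostatin receptor, measured 11.8, 16.04, 13.9 and 10.9 CPM in ethanol WT, 8.49, 10.1, 10.0 and 10.6 CPM in saline KO and 7.07, 7.50, 7.82 and 7.41 CPM in saline WT. None of its 3 groups overlapped another, and the shifts were 0.82 for ethanol and 0.40 for the knockout, with a direct difference of 0.42 (95% interval 0.13 to 0.71, adjusted p = 0.812). Map3k6, a stress-activated kinase, was split in the same way at 3.39, 6.53, 2.98 and 2.56 CPM in ethanol WT, 2.17, 2.35, 2.29 and 2.34 CPM in saline KO and 1.61, 1.70, 1.64 and 1.27 CPM in saline WT. Slc2a1, the glucose transporter of brain vessels, had shifts of 0.48 for ethanol and 0.26 for the knockout, and its 3 groups did not overlap either. Clic5 had shifts of 0.66 and 0.37 and Tjap1, a protein of tight junctions, 0.39 and 0.21, for ethanol and the knockout in that order, and for both genes ethanol WT overlapped saline KO. Per3, a clock repressor, had shifts of 0.36 for ethanol and 0.14 for the knockout, and saline KO overlapped saline WT. Fmo2 had shifts of 1.16 for ethanol and -0.16 for the knockout. The tenth gene, Atp5mg, is among those of the knockout shift.

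The knockout shift was led, after Acss2, mostly by genes of the mitochondrial respiratory chain and of ribosomes with lower values in saline KO than in saline WT. None of them passed in edgeR with its low-count filter and all libraries kept. The ethanol shift of these genes was negative too, and whether the shifts differ in size is given by the direct difference. Cox6c, a subunit of cytochrome c oxidase, measured 91.8, 78.8, 71.4 and 68.0 CPM in ethanol WT, 68.2, 62.6, 65.3 and 65.8 CPM in saline KO and 100.7, 109, 79.2 and 105 CPM in saline WT. All 4 saline KO libraries lay below all 4 of saline WT, and the ethanol WT libraries reached into both ranges. Its shift was -0.58 for the knockout (SE 0.087, adjusted p = 0.0502) and -0.35 for ethanol (SE 0.087, adjusted p = 0.266), and the direct difference was 0.24 (95% interval 0.05 to 0.42, adjusted p = 0.849). Atp5mg, a subunit of the ATP synthase, measured 52.6, 52.6, 49.5 and 43.4 CPM in ethanol WT, 48.4, 43.1, 42.2 and 45.7 CPM in saline KO and 64.3, 73.0, 56.1 and 80.0 CPM in saline WT. Both groups lay below saline WT in every library, at shifts of -0.61 for the knockout and -0.47 for ethanol and a direct difference of 0.14 (95% interval -0.06 to 0.34). Ndufa4, a further subunit of cytochrome c oxidase, and the complex I subunits Ndufa5 and Ndufc2 had shifts of -0.58, -0.67 and -0.58 for the knockout and -0.41, -0.53 and -0.39 for ethanol. Their direct differences of 0.18, 0.13 and 0.19 had 95% intervals that held 0.

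Rpl36a, a protein of the large ribosomal subunit, measured 32, 30.3, 27.1 and 27.7 CPM in ethanol WT, 25.9, 26.4, 26.9 and 30.8 CPM in saline KO and 36.8, 43.2, 32.5 and 41.4 CPM in saline WT. Both groups lay below saline WT, with shifts of -0.48 for the knockout and -0.39 for ethanol. Mrps14, of the mitochondrial ribosome, had shifts of -0.39 for the knockout and -0.30 for ethanol, and Grcc10 had -0.44 and -0.23, with all 4 ethanol WT libraries above saline KO and below saline WT. Lamc1, described above, was the tenth gene and the only one of the 10 with higher values in saline KO. Among the saline WT libraries M3 and F3 had the highest means of cytosolic ribosomal proteins, 6.50 and 6.34 log2 CPM, and they are part of the base of both shifts. Their part in the shifts of single genes was not tested beyond leaving libraries out. Without saline WT M1 the ethanol shift called 21 genes and the knockout shift 92.

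**Figure D3:**
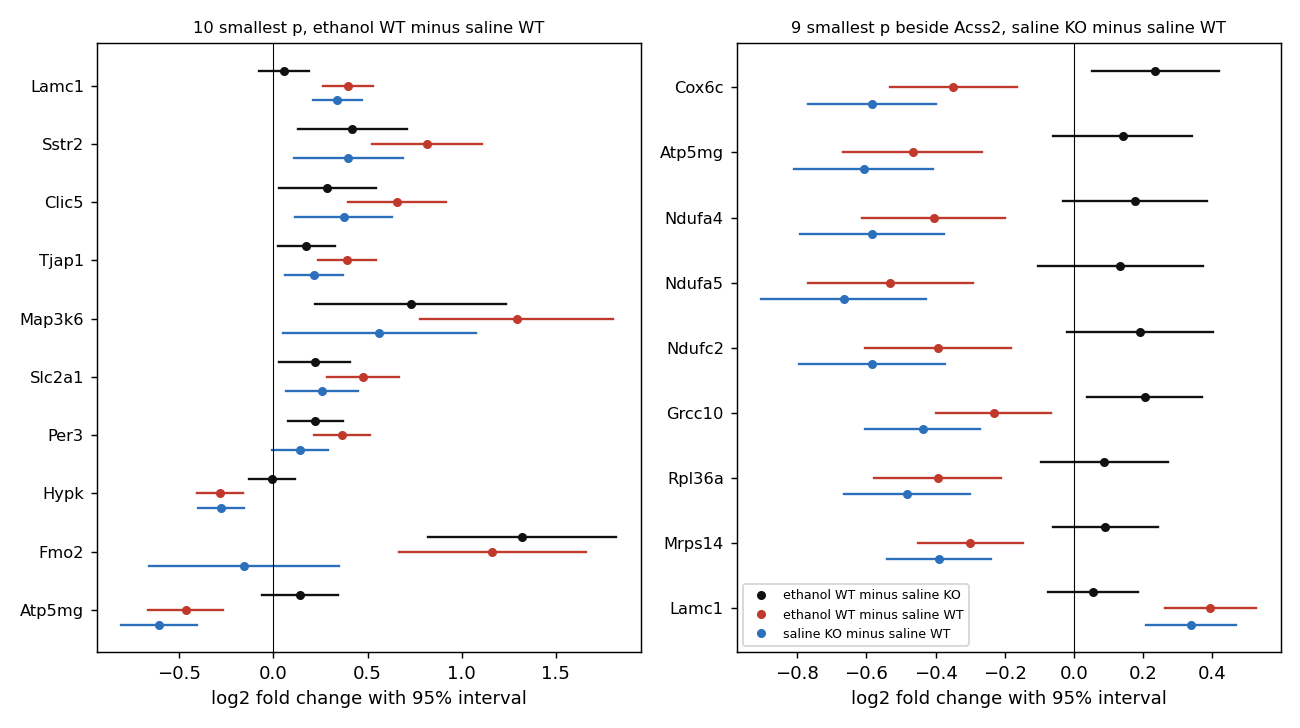
Log2 fold change with its 95% interval (x axis) of the genes with the smallest p in the ethanol shift (left) and in the knockout shift without Acss2 (right), for ethanol WT minus saline KO (black), ethanol WT minus saline WT (red) and saline KO minus saline WT (blue). Both shifts of Lamc1, Hypk and Atp5mg lie on the same side of 0 and their direct difference lies near 0, whereas Fmo2 stands apart in ethanol WT alone.

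Promoters of 3 respiratory genes are shown because these genes are among those leading the knockout shift and had a RefSeq window. Cox6c and Atp5mg had no window matched. NRF1, a transcription factor that binds the promoters of many respiratory genes, was looked for by the pattern GCGC, then A, then any base, then GCGC, on both strands of the RefSeq windows from 250 bases before to 50 after each gene's start (GRCm38.p6). RefSeq windows were matched for 28 of the 37 genes named by rank or as the target. The pattern was present in 11 of 54 promoters of nuclear-encoded respiratory chain and ATP synthase genes (20.4%), in 4 of 59 of cytosolic ribosomal proteins (6.78%) and in 1293 of all 27025 (4.78%). A part of NRF1 in the shifts was not tested. Of the 3 shown, 1 match lies in Ndufa5, at position -190 from the gene's start, and is given in capitals. The windows are Ndufa4 at chr6:11907401-11907700 (reverse strand), Ndufa5 at chr6:24527477-24527776 (reverse strand) and Ndufc2 at chr7:97399753-97400052 (forward strand).
Ndufa4: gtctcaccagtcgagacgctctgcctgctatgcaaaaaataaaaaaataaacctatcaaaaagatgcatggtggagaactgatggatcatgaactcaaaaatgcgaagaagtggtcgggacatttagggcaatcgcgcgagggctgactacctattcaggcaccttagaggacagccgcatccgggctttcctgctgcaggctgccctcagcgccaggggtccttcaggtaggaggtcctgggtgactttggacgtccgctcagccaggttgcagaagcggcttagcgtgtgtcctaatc
Ndufa5: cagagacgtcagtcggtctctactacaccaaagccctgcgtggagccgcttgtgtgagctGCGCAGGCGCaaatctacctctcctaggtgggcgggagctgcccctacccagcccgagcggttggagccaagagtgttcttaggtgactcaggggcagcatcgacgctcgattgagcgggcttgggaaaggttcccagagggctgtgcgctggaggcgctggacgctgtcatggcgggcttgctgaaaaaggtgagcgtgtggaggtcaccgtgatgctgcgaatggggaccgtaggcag
Ndufc2: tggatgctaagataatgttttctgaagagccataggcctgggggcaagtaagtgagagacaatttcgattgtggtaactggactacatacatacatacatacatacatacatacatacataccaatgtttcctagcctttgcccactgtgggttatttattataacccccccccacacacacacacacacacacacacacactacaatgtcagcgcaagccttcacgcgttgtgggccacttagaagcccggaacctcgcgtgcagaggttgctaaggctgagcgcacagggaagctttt

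Genes of acetate and acetyl-CoA use were described by list, with the count of members passing and the median log2 fold change beside that of all genes tested (0.00 in the direct comparison, where 50.3% of genes were positive). For the lists, passing refers to edgeR with its low-count filter and all libraries kept. Of 18 genes of acetyl-CoA supply 1 passed, Acss2, and 9 were positive (median 0.00). Acly, which makes acetyl-CoA from citrate in the cytosol, measured 151, 177, 149 and 145 CPM in ethanol WT, against 159, 134, 130 and 137 CPM in saline KO, which overlapped (log2 difference 0.15, SE 0.071, adjusted p = 0.862). Acss1, the mitochondrial counterpart of Acss2, named for its role after its values were seen, averaged 30.4 ± 1.74 CPM in ethanol WT and 31.3 ± 0.820 CPM in saline KO (SD, n = 4 each, log2 difference -0.04). None of 12 genes of acetate sources passed, nor any of 11 genes of ethanol and aldehyde oxidation. Among the last, the retinaldehyde dehydrogenase Aldh1a3 measured 0.297, 0.259, 0.269 and 0.134 CPM in ethanol WT, against 0.716, 0.430, 0.756 and 0.398 CPM in saline KO and 1.32, 0.497, 0.818 and 0.599 CPM in saline WT. The ethanol WT libraries lay below all others at these low levels (log2 difference from saline KO -1.27, SE 0.42, adjusted p = 0.812).

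The users of acetyl-CoA showed small differences in the direct comparison. Of 16 histone acetyltransferases none passed and 14 were positive, at differences of -0.05 to 0.18 (median 0.07). The interval of 15 of the 16 lay within 0.5 in either direction. None of 18 histone deacetylases and sirtuins passed, with 8 positive and a range of -0.16 to 0.24, and the interval of all 18 lay within 0.5. In each shift 13 of these 18 were positive, at medians of 0.06 for ethanol and 0.05 for the knockout. Their mean ran from 5.08 to 5.13 log2 CPM in ethanol WT, 5.06 to 5.13 in saline KO and 5.03 to 5.05 in saline WT. Of 32 bromodomain and YEATS readers of acetylated histones none passed (-0.23 to 0.37). None of 25 sterol synthesis genes passed (13 positive, median 0.02) and none of 16 fatty acid synthesis genes (12 positive, median 0.13). In each shift 23 of the 25 sterol synthesis genes were positive, with medians of 0.10 for ethanol and 0.11 for the knockout. Over all genes 52.2% were positive in the ethanol shift and 50.9% in the knockout shift. The sterol medians were 0.06 for ethanol without saline WT F3 and 0.06 for the knockout without saline KO F1. Fasn, the fatty acid synthase, averaged 291 ± 9.59 CPM in ethanol WT and 262 ± 13.7 CPM in saline KO (SD, n = 4 each, adjusted p = 0.858). The median of the fatty acid synthesis genes was 0.03 without saline KO F3 and 0.03 with the choroid plexus level as a covariate.

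Genes of translation and respiration were compared by list, and the ranges of their library means overlapped between saline WT and at least 1 of the other groups for the cytosolic ribosomal proteins and complex I. Of 80 cytosolic ribosomal proteins none passed in any of the 3 comparisons. Their median was 0.04 in the direct comparison (52 positive, against 50.3% of all genes), -0.17 in the ethanol shift (74 negative, against 47.8%) and -0.22 in the knockout shift (69 negative, against 49.1%). The list mean was 6.14, 6.10, 6.12 and 6.08 log2 CPM in ethanol WT, 6.04, 6.00, 6.01 and 6.26 in saline KO and 6.16, 6.34, 6.14 and 6.50 in saline WT. Saline KO M3 lay above all ethanol WT libraries and the other 3 of its group below them. The direct median moved between -0.00 without saline KO M1 and 0.10 without saline KO M3. Without saline WT M3 the medians of the shifts were -0.11 for ethanol and -0.13 for the knockout, and without both M3 and F3 they were -0.05 and -0.08.

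Subunits of the respiratory chain and of the ATP synthase had positive medians in the direct comparison and negative ones in both shifts. The 37 complex I subunits had a median of 0.07 in the direct comparison (28 positive), -0.18 in the ethanol shift (36 negative) and -0.30 in the knockout shift (31 negative). For the 15 complex IV subunits the medians were 0.14 (12 positive), -0.19 (14 negative) and -0.37 (14 negative), in the same order. For the 13 subunits of complexes II and III they were 0.06, -0.15 and -0.17, and for the 19 of the ATP synthase 0.05, -0.15 and -0.21. No member passed in any of the 3 comparisons in edgeR with its low-count filter and all libraries kept. Leaving out 1 library moved the direct median of complex I between 0.03 (without saline KO F3) and 0.12 (without saline KO M3). That of complex IV was 0.08 and that of the ATP synthase 0.00 without ethanol WT F1, and that of complexes II and III 0.01 without saline KO M1. In the direct comparison 4 of 15 complex IV subunits were higher at an unadjusted p under 0.05, against 2.52% of all genes. Among them was Cox8a (152 ± 10.9 CPM in ethanol WT and 128 ± 13.7 CPM in saline KO, SD, n = 4 each). The interval of the direct difference lay within 0.5 in either direction for 37 of 37 complex I subunits, 19 of 19 ATP synthase subunits and 12 of 15 complex IV subunits. Without saline WT M3 and F3 the complex I medians were -0.09 for ethanol and -0.17 for the knockout, and the complex IV medians -0.08 and -0.25. The 15 mitochondrially encoded transcripts were all negative in both shifts (medians -0.18 and -0.18), and their direct median of -0.02 was 0.03 with an offset for gene length.

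**Figure D4:**
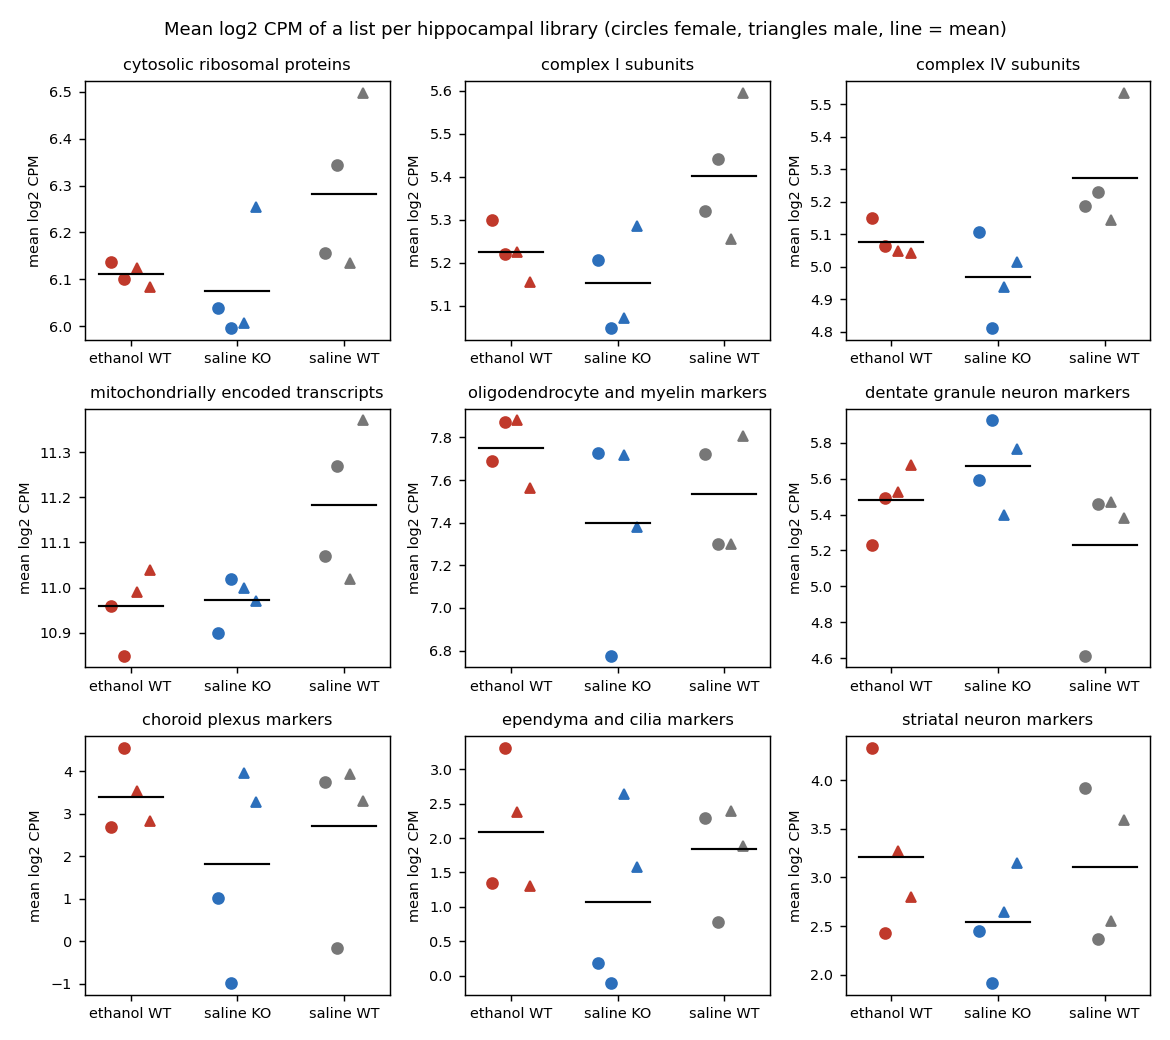
Mean log2 CPM (y axis, not from 0) of 9 gene lists in each hippocampal library of ethanol WT (red), saline KO (blue) and saline WT (grey), with circles for females, triangles for males and a line at the mean of 4. For the ribosomal and respiratory lists saline WT M3 is the highest library, and for the choroid plexus list saline KO F3 and saline WT F3 lie below 0.

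No gene of the clock, glucocorticoid or activity lists passed. Of 20 circadian clock genes 5 were higher and 1 lower at an unadjusted p under 0.05 in the direct comparison. Over all genes these shares were 2.52% and 3.29%. The median of the clock genes was 0.06, and 0.12 without saline KO F1. Per2, a clock repressor, measured 54.4, 51.6, 45.6 and 49.0 CPM in ethanol WT, against 33.2, 47.5, 34.3 and 39.7 CPM in saline KO and 42.4, 43.5, 33.6 and 27.3 CPM in saline WT. Ethanol WT lay above saline WT in every library and overlapped saline KO at F3 (log2 difference from saline KO 0.37, SE 0.13, adjusted p = 0.838). The time of day at death is not given in the sources used here. Of 22 glucocorticoid-responsive genes 13 were positive in the direct comparison (median 0.05, and -0.00 without saline KO F1), 17 in the ethanol shift (median 0.16) and 16 in the knockout shift (median 0.19). Ddit4, an inhibitor of mTORC1, measured 58.8, 52.7, 55.1 and 54.1 CPM in ethanol WT, against 62.2, 64.9, 64.1 and 72.4 CPM in saline KO and 49.9, 49.9, 46.0 and 54.6 CPM in saline WT. Saline KO lay above both wild-type groups (log2 difference of ethanol WT from saline KO -0.26, SE 0.089, adjusted p = 0.814). Hif3a, a hypoxia-inducible factor, averaged 7.88 ± 2.16 CPM in ethanol WT, 5.16 ± 1.56 CPM in saline KO and 4.54 ± 1.04 CPM in saline WT (SD, n = 4 each), and the groups overlapped.

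Of 40 genes that neurons switch on when active none passed in the direct comparison. In ethanol WT minus saline KO 28 were negative (against 49.7% of all genes), with a median of -0.13. At an unadjusted p under 0.05, 5 were lower and 1 higher, against 3.29% and 2.52% of all genes. Fos, an immediate early transcription factor, measured 11.2, 7.65, 8.17 and 6.86 CPM in ethanol WT, against 19.6, 11.02, 15.3 and 13.5 CPM in saline KO and 20.4, 11.8, 12.6 and 14.0 CPM in saline WT. Ethanol WT F1 reached the lowest saline KO library, and the other 3 lay below it (log2 difference -0.83, SE 0.23, adjusted p = 0.812). Egr2, of the same class, measured 2.37, 1.98, 1.65 and 1.42 CPM in ethanol WT, against 2.69, 2.81, 4.88 and 4.21 CPM in saline KO and 7.23, 3.44, 2.68 and 2.79 CPM in saline WT, with all ethanol WT libraries below all others. The knockout shift of the list was near that of all genes (median -0.02), and the ethanol shift was -0.10. Without ethanol WT F3 the direct median was -0.06 and the ethanol shift -0.06, and without saline KO F1 the knockout shift was 0.06.

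Neuropeptides and their receptors had a median of 0.22 in the direct comparison, with 20 of 29 positive and none passing, which was 0.12 without ethanol WT F1 and 0.34 without saline KO M1. The ethanol shift had a median of -0.03, and 0.08 without saline WT M1, and the knockout shift -0.16, and -0.02 without saline KO F1. Tac2, which encodes neurokinin B, measured 1.48, 18.97, 1.63 and 1.44 CPM in ethanol WT, against 0.963, 1.19, 1.07 and 1.67 CPM in saline KO. A single library, ethanol WT F3, stood far above all others, and the other 3 of its group overlapped saline KO. Sst, somatostatin, measured 113, 69.9, 113 and 89.1 CPM in ethanol WT, against 60.4, 91.3, 65.9 and 70.3 CPM in saline KO and 124, 100.9, 109 and 106 CPM in saline WT. Saline KO lay below saline WT in every library and overlapped ethanol WT (log2 difference of ethanol WT from saline KO 0.42, SE 0.20, adjusted p = 0.862). Npy measured 31.2, 25.0, 41.8 and 30.8 CPM in ethanol WT, against 19.7, 31.6, 24.2 and 24.7 CPM in saline KO and 32.3, 32.4, 32.3 and 39.2 CPM in saline WT, with the same overlaps. Of the 16 markers of GABAergic interneurons, the cells that make both peptides, 15 were positive in the direct comparison (median 0.12), and 15 were negative in each of the shifts (medians -0.07 and -0.21). Their direct median was 0.06 without ethanol WT F1 and 0.19 without ethanol WT F3, and the ethanol shift was 0.02 without ethanol WT F3.

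Markers of other cell types moved between libraries, and the part that unequal dissection or cell content had in the results above was not tested. Markers of the choroid plexus, which makes cerebrospinal fluid, averaged 2.69, 4.54, 3.54 and 2.82 log2 CPM in ethanol WT, 1.01, -0.98, 3.94 and 3.26 in saline KO and 3.73, -0.16, 3.93 and 3.31 in saline WT. The female saline KO libraries F1 and F3 and saline WT F3 were low, and the ranges overlapped. All 17 were positive in the direct comparison (median 1.15) and none passed, and the median was 0.52 without ethanol WT F3 and 1.94 without saline KO M1. Ependyma and cilia markers ran from 1.31 to 3.31 log2 CPM in ethanol WT, -0.11 to 2.64 in saline KO and 0.78 to 2.39 in saline WT (17 of 17 positive, direct median 1.14, and 0.29 without ethanol WT F3). Striatal neuron markers ran from 2.43 to 4.33 in ethanol WT, 1.91 to 3.15 in saline KO and 2.37 to 3.92 in saline WT (14 of 16 positive, direct median 0.77, and 0.22 without ethanol WT F1). Thalamic markers had a direct median of -0.43, which was 0.54 without saline KO F1, whose mean of 5.72 log2 CPM was the highest of the 12 libraries. Neocortical neuron markers ran from 4.36 to 4.70 in ethanol WT, 3.89 to 4.47 in saline KO and 3.945 to 4.32 in saline WT. Of these markers 12 of 16 were positive in the direct comparison (median 0.28, and 0.18 without ethanol WT F1). In the ethanol shift 15 were positive (median 0.28), and in the knockout shift 10 (median 0.09, and -0.12 without saline KO F1). With the choroid plexus level as a covariate Acss2 remained the single call of the direct comparison.

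Among the cells of the hippocampus itself, oligodendrocyte and myelin markers were positive in 19 of 19 genes of the direct comparison (median 0.29), and none passed. Their mean was 7.69, 7.87, 7.88 and 7.56 log2 CPM in ethanol WT, against 7.73, 6.78, 7.72 and 7.38 in saline KO and 7.72, 7.30, 7.30 and 7.81 in saline WT. Saline KO F3 was the lowest library, and without it the median was 0.14. With the choroid plexus level as a covariate it was 0.08. Mbp, myelin basic protein, averaged 3735 ± 464 CPM in ethanol WT and 2856 ± 679 CPM in saline KO (SD, n = 4 each), and the groups overlapped. Oligodendrocyte precursor markers had 9 of 11 positive (median 0.16, and 0.28 without saline KO F1), among them Gpr17, described above, and Olig2, a transcription factor of the lineage, at 37.8, 43.5, 37.8 and 33.4 CPM in ethanol WT, against 33.3, 24.8, 31.5 and 28.6 CPM in saline KO. Olig2 did not overlap between the groups, though ethanol WT M3 and saline KO F1 nearly met (log2 difference 0.37, SE 0.16, adjusted p = 0.858).

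Dentate granule neuron markers had 10 of 13 negative in the direct comparison (median -0.20, and 0.00 with the choroid plexus level as a covariate), and CA1 pyramidal markers 10 of 12 positive (median 0.16, and -0.01 without saline KO F1). In the knockout shift 13 of 13 dentate markers were positive (median 0.39) and 12 of 12 CA1 markers negative (median -0.26), and in the ethanol shift 10 dentate markers were positive (median 0.17) and 9 CA1 markers negative (median -0.11). The CA1 medians were 0.01 in the ethanol shift without ethanol WT F3 and -0.10 in the knockout shift without saline KO F1. Saline WT F1, with a dentate mean of 4.61 log2 CPM against 5.38 to 5.47 in the other saline WT libraries, is part of both shifts, and without it the dentate medians were 0.04 for ethanol and 0.24 for the knockout. Trpc6, a cation channel of dentate neurons, measured 15.4, 18.8, 18.6 and 21.2 CPM in ethanol WT, against 26.3, 36.6, 23.3 and 30.8 CPM in saline KO, which did not overlap. Pdzd2, on the same list, ran the other way, at 101.3 to 110.1 CPM in ethanol WT and 52.2 to 89.7 CPM in saline KO. Markers of pericytes and smooth muscle were positive in 12 of 13 genes of each shift, with medians of 0.26 for ethanol and 0.38 for the knockout, and had a direct median of -0.09, which was -0.17 without saline KO M3 and -0.03 without saline KO F1. The ethanol median was 0.14 without ethanol WT M3. Of 17 endothelial markers 8 were positive and 9 negative in the direct comparison (median -0.04, and 0.07 without saline KO F1), and none passed. The 1 with the largest negative difference, Cldn5, a tight junction protein of brain endothelium, measured 14.2, 10.5, 16.2 and 17.6 CPM in ethanol WT, against 21.7, 20.2, 18.2 and 21.9 CPM in saline KO and 10.5, 12.9, 14.3 and 20.0 CPM in saline WT. Saline KO lay above ethanol WT in every library (log2 difference -0.51, SE 0.16, adjusted p = 0.812). Of the 17 endothelial markers 16 were positive in the ethanol shift (median 0.14) and 15 in the knockout shift (median 0.18). Their mean ran from 3.76 to 4.07 log2 CPM in ethanol WT, 3.863 to 4.10 in saline KO and 3.62 to 3.857 in saline WT. Astrocyte and microglia markers had direct medians of -0.02 and -0.03 with no member passing.

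**Figure D5:**
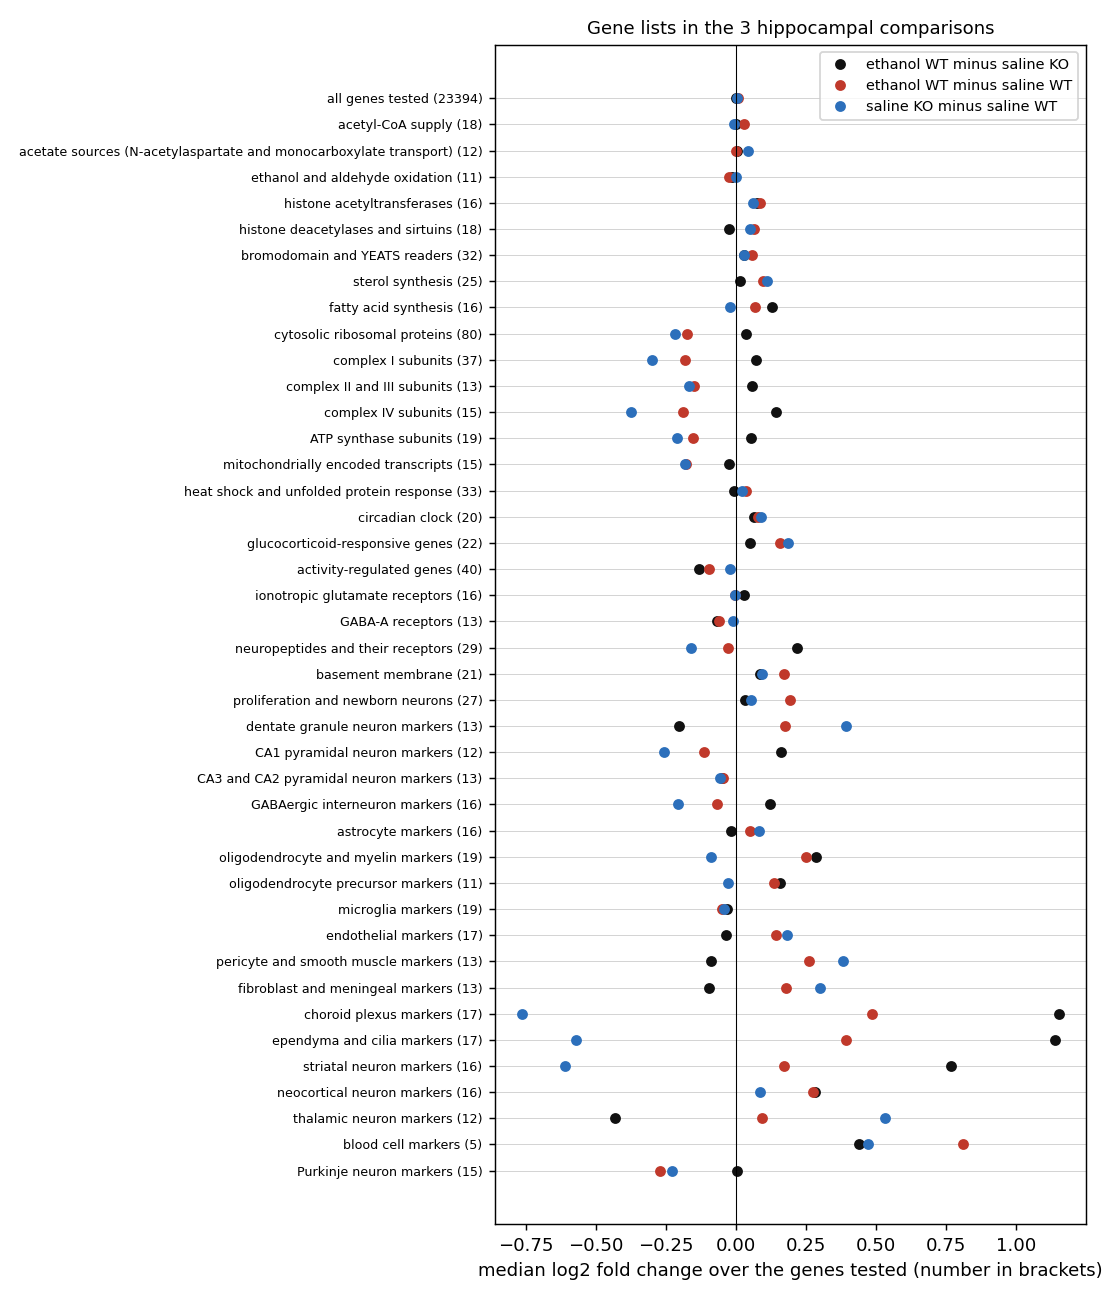
Median log2 fold change (x axis) of each gene list, with the number of genes tested in brackets, for ethanol WT minus saline KO (black), ethanol WT minus saline WT (red) and saline KO minus saline WT (blue). Both shifts of the ribosomal and respiratory lists lie below 0. Their direct medians run from -0.02 (mitochondrially encoded transcripts) to 0.14 (complex IV). The largest direct medians belong to choroid plexus, ependyma and striatal markers.

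Whole profiles lay about as far apart between the groups as within them. The root mean square difference in log2 CPM over 16561 genes had a median of 0.421 over the 16 pairs of an ethanol WT and a saline KO library (range 0.262 to 0.617). It was 0.397 between ethanol WT and saline WT and 0.410 between saline KO and saline WT. Within groups the median over 6 pairs was 0.392 in ethanol WT, 0.445 in saline KO and 0.429 in saline WT.

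The sexes were compared by fitting females and males of each group as separate terms. The difference of ethanol WT from saline KO was called for 1 gene in females and 1 in males, Acss2 in each, at log2 2.16 (SE 0.11) and 2.26 (SE 0.11). The female minus male difference of this comparison was called for 0 of 23394 genes in edgeR (0%), with 1558 at an unadjusted p under 0.05, and for Acss2 it was -0.10 (SE 0.16, adjusted p = 0.916). With 2 mice of each sex a group, only large differences between the sexes could be called.

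The same mice also gave vermis libraries, and there the contrast differed from that of the hippocampus, by a test with mouse as a block. Of 24458 genes 461 differed between the tissues (1.88%), 454 with a higher contrast in hippocampus (1.86%), and 303 differed without the mouse ethanol WT F3. Cytosolic ribosomal proteins made up 65 of these, of 80 tested, and complex I subunits 24 of 37. The median contrast of the ribosomal proteins was 0.04 in hippocampus and -0.80 in vermis, and that of complex I 0.07 and -0.57. In the vermis 77 of the 80 ribosomal proteins were lower in ethanol WT than in saline KO, where 1115 of 22441 genes were called lower (4.97%) and 1166 in either direction (5.2%). Cox6c had a log2 difference of 0.24 in hippocampus and -0.905 in vermis (difference 1.13, adjusted p = 1.21e-05). Acss2 had 2.21 and 1.76, which did not differ past the threshold (difference 0.435, adjusted p = 0.236). The mean level of the ribosomal proteins lay between 5.83 and 5.98 log2 CPM in the vermis of ethanol WT, 6.63 and 6.79 in that of saline KO and 5.96 and 6.00 in that of saline WT. In that tissue saline KO lay above both wild-type groups in every library.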

How the data were processed

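RNA from the dorsal hippocampus of 16 mice was sequenced after library preparation from 10 ng of total RNA, and matched vermis libraries were used for the tissue comparison alone. The deposited table holds raw read counts for 56415 genes, 1 column a library, made by the authors and not normalized. Per the submitters' processing notes reads were handled with STAR 2.7.10a, featureCounts 2.0.6, cutadapt 5.0, bcl2fastq and DESeq2 on the GRCm39 build (roles not stated); the strand setting of the counting is not given in the sources used here, so reads of antisense or overlapping genes cannot be told apart. Mates were mostly counted separately, so even counts prevail and counts overstate the number of fragments.

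Counts were tested with edgeR 4.0.16 (robust quasi-likelihood F-test, limma 3.58.1, R 4.3.3) on the 16 hippocampal libraries of all 4 groups, with TMM scaling, edgeR's default filter on low counts and sex as a covariate. The 4 groups shared 1 estimate of the spread, and p-values, adjusted by Benjamini-Hochberg over 23394 genes at 0.05, measure the spread between mice. Log2 CPM used a prior count of 2. Tissue differences were tested with mouse as a block. DESeq2 1.42.0 and the other alternatives are given in the closing section. Figures were drawn with Python 3.11.15 and matplotlib 3.10.9.

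The code was tested on simulated data. The members and the 41 gene lists were chosen with earlier results of these data known. Genes were named by rank: the 10 with the smallest p in each direction of the direct comparison, the 10 in each shift, at least 1 CPM and no predicted name, and up to 4 members of each list by p in the direct comparison. Replicate labels shared by the groups were not taken to pair the mice. Promoters came from RefSeq (GRCm38.p6), a different build from that of the counts.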

Additional observations from a re-analysis of the deposited data

Results flagged for a closer look

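In 234 groups of 4 libraries checked, 8 held a library far from the other 3, where chance gives about 11.7 (1 in 20). Among named genes, Plekho2 measured 11.5 CPM in saline KO F1, against 8.37 to 8.73 CPM in the other 3. Plcl1 measured 54.4 CPM in saline KO F3, against 57.7 to 58.1 CPM. Per3 measured 60 CPM in ethanol WT F3, against 53.4 to 54.2 CPM in the rest of its group. Clic5 measured 5.69 CPM in saline WT M3, against 6.63 to 6.69 CPM.

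Among list means, that of the cytosolic ribosomal proteins was 6.26 log2 CPM in saline KO M3 and 6.00 to 6.04 in the other knockouts. Dentate granule neuron markers stood at 4.61 log2 CPM in saline WT F1 and 5.38 to 5.47 in the rest of that group. Choroid plexus markers stood at -0.164 log2 CPM in saline WT F3 and 3.31 to 3.93 in the rest. Sterol synthesis genes stood at 4.90 log2 CPM in saline WT F3 and 5.00 to 5.01 in the rest.

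The comparison of ethanol WT with saline KO differed between hippocampus and vermis for 461 genes, by a test of the difference itself.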

How the results depend on the processing

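Acss2 passed in the direct comparison under every alternative run. The number of direct calls was 1 in edgeR, 6 with DESeq2, 620 with no low-count filter and 1 to 2 with 1 library left out. The count of 2 was reached without ethanol WT M1. Among the 620 were genes whose groups overlapped, such as Clic6 and Tac2. The ethanol shift called 128 genes with DESeq2, 608 with no low-count filter and 0 to 21 with 1 library left out. The knockout shift called 195 with DESeq2, 633 with no low-count filter, 2 with only the groups compared in the fit and 1 to 92 with 1 library left out. The largest counts of both shifts came without saline WT M1. The sex difference called 752 genes with no low-count filter. The tissue difference called 303 to 434 genes with 1 mouse left out. The cause of these moves was not tested.

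With the replicate label as a block in place of sex the direct comparison called 1 gene, the ethanol shift 0 and the knockout shift 1. Same-labelled libraries of ethanol WT and saline KO correlated at -0.44 to 0.14 in their deviations from the group means, and none correlated best with its own label. These correlations gave no ground to pair mice by label, but they cannot exclude a shared litter or processing day. The alternative without saline WT M3 and F3 was chosen after seeing the data. With 4 mice a group, intervals were widest for genes under 1 CPM, and counts limit what can be said of them.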
